A study of Mus musculus with 56 samples.

Results

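The nuclear-encoded subunits of the mitochondrial respiratory chain and of ATP synthase were followed through the activation of mouse CD4 T cells. They were taken by symbol: every gene whose name starts with Nduf and the letter a, b, c, s or v, with Uqcr, with Cox and a number of 4 to 8, or with Atp5, in both deposited count tables. Of 88 such symbols, 73 had at least 10 counts in each table and are the members described here, among 19791 symbols in the table of experiment 1 and 24421 in that of experiment 2. They comprise 32 subunits of complex I, 5 assembly factors of complex I (the Ndufaf genes), 8 subunits of complex III, 13 of complex IV and 12 of ATP synthase, together with Ndufa4, first counted in complex I and now placed in complex IV but counted apart below, and with Atp5s and Atp5sl, which carry the prefix but are not subunits of the enzyme. The other 15 symbols were left out by the minimum. Among them Atp5h had 0 counts in experiment 1 and 66029 in experiment 2, and Ndufa13 had 0 and 53387, so some of the symbols left out were well read in the other table. A filter on low counts kept 60 members for testing in experiment 1 and 70 in experiment 2.

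Complexes I, III and IV pass electrons of NADH and ubiquinol to oxygen and pump protons out of the mitochondrial matrix, and ATP synthase, also called complex V, uses the returning protons to make ATP. Most of their subunits are made from nuclear genes and are built into each complex with the help of assembly factors, while a few core subunits come from mitochondrial DNA. A naive T cell that meets its antigen grows, raises glycolysis and enlarges its mitochondria before it divides.

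The cells were CD4 T cells of the spleen of C57BL/6 mice, cultured with beads carrying antibodies to CD3 and CD28 and with no added cytokine. Experiment 2 held 38 libraries. Its cultures were started at a high concentration of 1000000 cells per ml or at a low one of 62500 cells per ml and taken at 18, 30, 48 and 72 h, with 3 libraries in each of these 8 groups except the low culture at 72 h, which had 2. In the same experiment, cells started at 250000 per ml were sorted at 48 and 72 h as CD44+ CD62L positive or CD44+ CD62L negative (3 libraries each), and 3 libraries came from naive cells. CD62L, or L-selectin, is the receptor by which naive and central memory T cells enter lymph nodes. Experiment 1 held 18 libraries in 6 groups of 3: CD62L positive and CD62L negative cells at 48 and at 72 h, again from cultures started at 250000 cells per ml, then mature cells (CD44+ CD62L-) and naive cells (CD44- CD62L+), both unactivated. The labels used here state neither the age and sex of the mice nor whether the libraries of a group came from separate mice or cultures. The p-values therefore reflect the spread among libraries, which may be technical.

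Each library was read near the 3′ end of polyadenylated RNA and its counts were of unique molecular identifiers, tags that mark each captured molecule. Totals ran between 587118 and 3359875 counts per library in experiment 2 and between 58750 and 1738555 in experiment 1, the lowest being naive replicate 1. The members took 1.89 to 3.73% of the counts of a library in experiment 2 and 0.628 to 1.50% in experiment 1. Levels below are CPM, counts scaled to a common library size, with library sizes adjusted by the trimmed mean of M values (TMM), each table on its own. The same member could be read at very different levels in the tables: Ndufa5 had 62.0 CPM or more in every activated library of experiment 2 and at most 2.29 CPM in any library of experiment 1. Levels were therefore not compared between experiments. Between genes, levels were used only in sums and to name the most abundant member of a complex. The defining CD4 T cell markers summed to 1520 to 4690 CPM in experiment 2, where those of red cells and platelets were at 0, of B cells at 0 to 14.9 CPM, of myeloid cells at 0 to 27.1 CPM and of CD8 T and NK cells at 13.1 to 96.2 CPM. In experiment 1 the CD4 markers summed to 1170 to 2970 CPM.

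Replicate libraries of experiment 2 differed for a few members in ways that their group does not account for. In the high culture at 30 h, replicates 1, 2 and 3 had 14.4, 76.8 and 21.3 CPM of Uqcrb, the ubiquinone-binding subunit of complex III, and 239, 126 and 241 CPM of Ndufa4. In CD62L negative cells at 48 h, replicates 1, 2 and 3 had 86.8, 11.2 and 72.7 CPM of Uqcrb and 62.9, 238 and 123 CPM of Ndufa4. In both groups the libraries lowest in Uqcrb were among the highest in Ndufa4, and replicate 2 stood apart from the others in each. Libraries of a group differed by over 4-fold for 7 members in experiment 2 (Atp5g2, Atp5s, Cox6a2, Cox6b2, Ndufa11, Ndufaf4 and Uqcrb) and for 39 in experiment 1, and their values are uncertain.

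**Figure D1:**
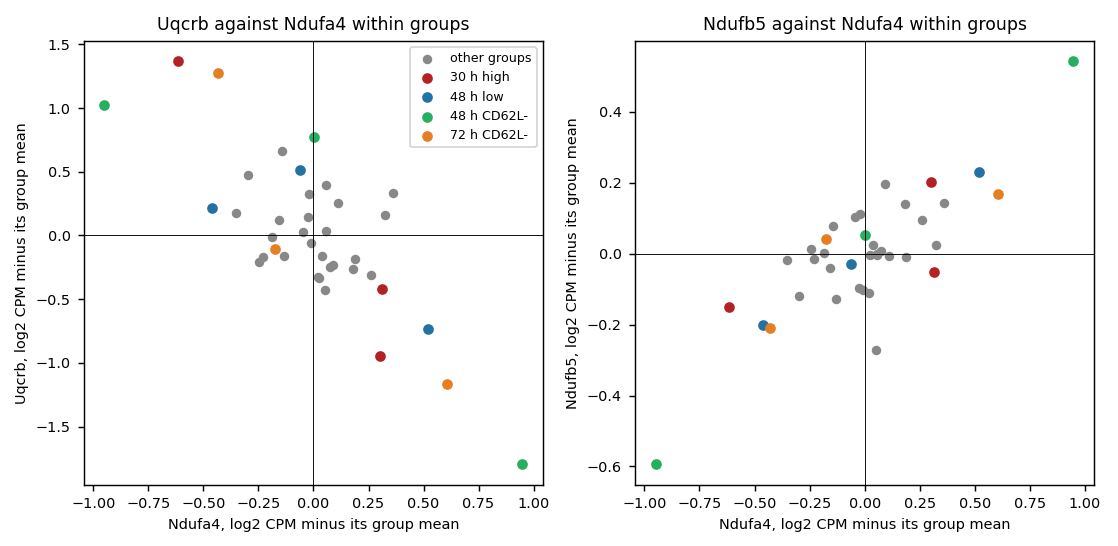
Deviation of each of the 38 libraries of experiment 2 from the mean of its group (log2 CPM) for Uqcrb and for Ndufb5, each against that of Ndufa4; colours mark the high culture at 30 h, the low culture at 48 h and CD62L negative cells at 48 and 72 h, and grey the other groups. Points for Uqcrb run opposite to Ndufa4 and points for Ndufb5 run with it, so these members vary together inside groups of 1 label; all points share the scaling of their library.

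The starts of 4 genes that the results below turn on are shown here. Ndufa5 and Atp5g1 rose on activation and were later lower in dense cultures, whereas Ndufv3 and Cox7a2l did the reverse. For Cox7a2l the change of the high minus low difference between 18 and 72 h, 0.28 ± 0.29, did not pass the test. The 4 genes were picked by how they changed. Motif matches were not compared between members that rose and members that fell. Each line runs 5′ to 3′ over 250 bases before and 50 bases after a transcription start in RefSeq, build GRCm38.p6 (the submitters' own build was mm9, and these coordinates are not those of their counting). The windows are chr6:24527477-24527776 on the minus strand for Ndufa5 (one of the 2 starts listed), chr11:96075582-96075881 on the minus strand for Atp5g1, chr17:31519865-31520164 on the plus strand for Ndufv3 and chr17:83514284-83514583 on the minus strand for Cox7a2l. Capitals mark a match to the NRF1 motif (GCGCA, any base, then GCGC) in Ndufa5 and to the E-box CACGTG in Atp5g1. The windows of Ndufv3 and Cox7a2l hold no match to any motif searched.
Ndufa5: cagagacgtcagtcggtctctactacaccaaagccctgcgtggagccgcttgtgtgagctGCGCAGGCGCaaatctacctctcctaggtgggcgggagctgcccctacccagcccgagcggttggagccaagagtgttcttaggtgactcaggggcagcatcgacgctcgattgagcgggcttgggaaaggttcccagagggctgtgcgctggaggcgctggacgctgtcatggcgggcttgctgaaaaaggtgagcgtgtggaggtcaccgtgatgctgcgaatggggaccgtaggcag
Atp5g1: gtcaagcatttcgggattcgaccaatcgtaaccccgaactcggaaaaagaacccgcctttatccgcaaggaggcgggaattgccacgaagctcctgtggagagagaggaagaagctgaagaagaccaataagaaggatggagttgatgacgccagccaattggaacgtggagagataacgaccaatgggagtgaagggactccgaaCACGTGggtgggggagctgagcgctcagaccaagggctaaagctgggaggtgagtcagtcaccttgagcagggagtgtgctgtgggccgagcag
Ndufv3: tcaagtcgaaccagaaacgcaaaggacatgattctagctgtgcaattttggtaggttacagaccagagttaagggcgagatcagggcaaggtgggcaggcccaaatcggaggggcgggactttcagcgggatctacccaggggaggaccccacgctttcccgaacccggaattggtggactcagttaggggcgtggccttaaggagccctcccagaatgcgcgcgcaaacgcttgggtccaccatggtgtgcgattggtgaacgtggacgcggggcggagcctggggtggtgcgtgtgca
Cox7a2l: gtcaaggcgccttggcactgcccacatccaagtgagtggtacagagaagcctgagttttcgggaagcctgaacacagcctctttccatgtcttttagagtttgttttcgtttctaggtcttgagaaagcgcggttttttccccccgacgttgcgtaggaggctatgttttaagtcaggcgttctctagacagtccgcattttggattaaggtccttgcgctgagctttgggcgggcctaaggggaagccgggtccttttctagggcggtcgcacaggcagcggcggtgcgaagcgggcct

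Searched on both strands, the NRF1 motif stood in 13 of the 67 promoter windows found for 62 members, or 19.4%, against 4.6% of all 32851 windows of that length. The GABPA motif CCGGAAG stood in 17.9% of the members' windows against 8.86% of all, and the E-box CACGTG in 13.4% against 7.15%. ACGTGC, the core of the hypoxia response element, stood in 2.99% against 5.91% of all windows, and TATAAA in 8.96% against 13.6%. These are descriptions of letters; binding was not measured.

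Most members were higher after 18 h of activation. In experiment 2, cells activated for 18 h, with both concentrations averaged, had 47 of 70 tested members higher and 8 lower than naive cells, where 65.9% of all 9239 genes passed the test (32.3% higher and 33.6% lower). The median member differed by 0.77 on the log2 scale. In bulk libraries a change in the RNA per cell and a change in the share of cells of a type cannot be told apart. By complex, 21 of 31 complex I subunits rose and 3 fell, 7 of 8 complex III subunits rose and none fell, 7 of 12 complex IV subunits rose and 2 fell, and 9 of 12 ATP synthase subunits rose and 1 fell. Of the 4 tested assembly factors, Ndufaf2 and Ndufaf7 rose and Ndufaf3 fell. Cd8b1, a marker of CD8 T cells, was also higher than in naive cells, by 0.94 ± 0.19 (adjusted p = 3.87e-05), and fell by 0.76 between 18 and 30 h and by 0.88 between 30 and 48 h (SE 0.15 and 0.16; adjusted p = 0.000122 and 2.09e-05); its part in the members' changes was not tested.

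Among complex I subunits the largest rise was in Ndufa5, an accessory subunit of the peripheral arm. At 18 h the high cultures had 305, 308 and 266 CPM and the low cultures 225, 230 and 232 CPM, against 19.3, 25.5 and 38.3 CPM in naive libraries. All 6 activated libraries lay far above all 3 naive ones, and the difference was 3.19 ± 0.21 (log2 ± SE; adjusted p = 2.66e-18). Ndufab1, the mitochondrial acyl carrier protein, rose by 2.12 ± 0.16 (adjusted p = 1.26e-16), and Ndufa12, an accessory subunit added late in assembly, by 2.13 ± 0.27 (adjusted p = 3.75e-08). The 3 that fell were Ndufv3, Ndufa6 and Ndufa2. Ndufv3, an accessory subunit at the site that oxidises NADH, had 262, 379 and 278 CPM in high and 334, 392 and 394 CPM in low cultures at 18 h, against 556, 773 and 711 CPM in naive cells. The groups did not overlap, and Ndufv3 fell by 1.01 on the log2 scale (SE 0.12; adjusted p = 1.11e-10).

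In complex III the largest rise was in Uqcrb. It had 262, 172 and 175 CPM in high and 131, 186 and 130 CPM in low cultures at 18 h, against 19.3, 20.5 and 20.7 CPM in naive cells, a difference of 3.10 ± 0.60 (adjusted p = 6.83e-05). Uqcr10, a small subunit of the same complex and the member of it with the most counts, rose by 0.89 ± 0.13 (adjusted p = 7.75e-08). Both were separate from naive cells in every activated library at 18 h.

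In complex IV, Cox7a2l went the other way from most subunits. Its protein, also called SCAF1, has been described as linking complex III with complex IV in supercomplexes, which were not measured in these cells. Cox7a2l had 103, 104 and 80.6 CPM in high and 82.5, 69.1 and 78.5 CPM in low cultures at 18 h, against 370, 361 and 378 CPM in naive libraries. Every activated library was below every naive one, and the fall was by 2.10 on the log2 scale (SE 0.15; adjusted p = 3.78e-17). Its paralogue Cox7a2, the form of subunit 7a found in most tissues, rose by 1.73 ± 0.17 (adjusted p = 9.05e-13), though Cox7a2 overlaps Tmem30a on the genome. Cox7b rose by 2.30 ± 0.26 (adjusted p = 4.19e-09). Cox4i1, the usual form of subunit 4, fell by 0.25 on the log2 scale (SE 0.11; adjusted p = 0.0418).

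Among ATP synthase subunits, Atp5b, the catalytic beta subunit, had 2790, 2697 and 2799 CPM in high and 2635, 2549 and 2518 CPM in low cultures at 18 h, against 894, 1002 and 971 CPM in naive cells. The groups were far apart, with a difference of 1.48 ± 0.11 (adjusted p = 3.43e-17). Atp5g1, Atp5g2 and Atp5g3 encode the same mature protein, the c subunit of the rotor ring. Atp5g1 rose by 1.32 ± 0.15 (adjusted p = 1.18e-10) and Atp5g3 by 0.54 ± 0.14 (adjusted p = 0.000488). Atp5g2, with few counts, had 6.52, 8.21 and 1.83 CPM in high and 11.7, 1.21 and 0 CPM in low cultures at 18 h, against 13.9, 22.4 and 15.9 CPM in naive cells, a fall by 1.61 on the log2 scale (SE 0.44; adjusted p = 0.00136).

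**Figure D2:**
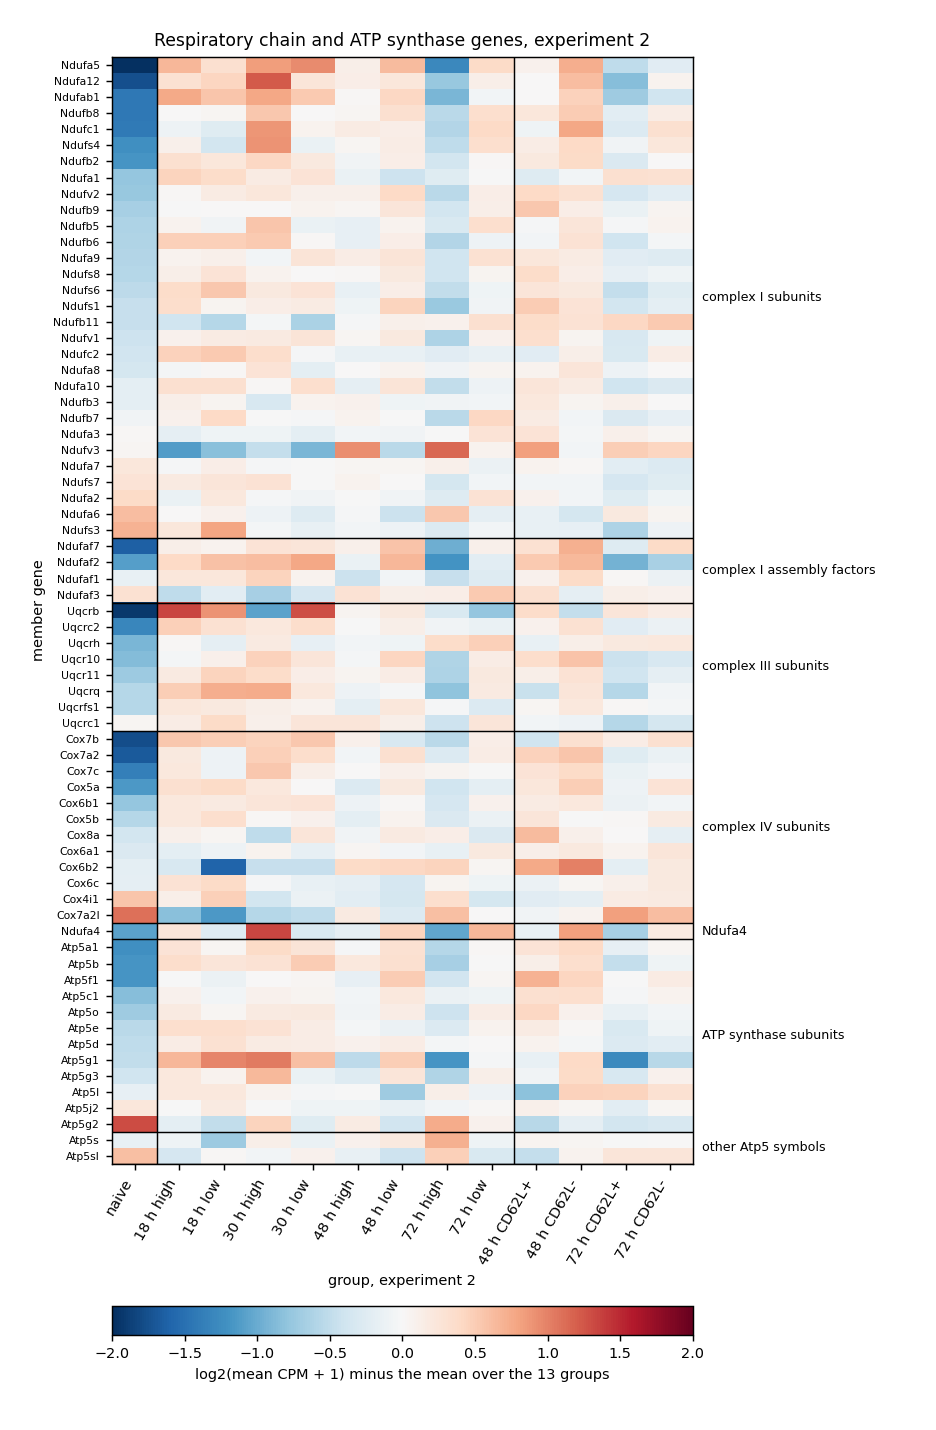
Level of the tested members of experiment 2, with 1 of the 70 not drawn, in its 13 groups, ordered by complex, as log2 of the mean CPM + 1 minus the mean of the member over the groups. Most members are lowest in naive cells, and Cox7a2l, Ndufv3, Ndufa6 and Atp5sl are among those that are not.

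Over the unsorted cells, the summed levels at high concentration were highest at 18 or 30 h in complexes I, III and IV and in ATP synthase. At low concentration the ATP synthase sum was highest at 48 h and those of complexes I, III and IV at 18 h. The summed level of the 12 ATP synthase subunits was 6390 ± 538 CPM in naive cells; at 18, 30, 48 and 72 h it was 11600 ± 722, 12310 ± 352, 9787 ± 397 and 7608 ± 144 CPM in high cultures (SD, n = 3). In low cultures it was 11310 ± 355, 11360 ± 549, 11530 ± 480 and 10180 ± 542 CPM (SD, n = 3, and n = 2 at 72 h). Complex I subunits summed to 9068 ± 322 CPM in high and 10780 ± 262 CPM in low cultures at 72 h, and to 8247 ± 956 CPM in naive cells. Complex III subunits summed to 3071 ± 342 and 4098 ± 128 CPM in high and low cultures at 72 h and to 2207 ± 289 CPM in naive cells. Complex IV subunits did not separate in this way, at 7481 ± 381 CPM in high and 7278 ± 309 CPM in low cultures at 72 h. A sum is led by its most abundant members and was not tested.

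Over the 9 groups of unsorted cells, naive cells included, and of the 70 tested members, 39 had their lowest mean in naive cells and 14 in the high culture at 72 h. The high culture at 30 h was the highest group for 19 members, the low culture at 18 h for 11, and naive cells for 8. These group means are descriptions of 2 or 3 libraries each.

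From step to step, with both concentrations averaged, few members changed between 18 and 30 h. There 7 of 70 were higher and 4 lower at 30 h, where 24.6% of all genes passed (13.9% higher and 10.6% lower). Ndufc1 and Ndufs4, accessory subunits of complex I, rose by 0.66 ± 0.16 and 0.53 ± 0.16 (adjusted p = 0.00172 and 0.0142). Ndufs3, a core subunit of complex I, and Cox4i1 fell by 0.63 and 0.54 on the log2 scale (SE 0.17 and 0.09; adjusted p = 0.00422 and 8.33e-06). The direction of this count is not stable: without replicate 1 of the high culture at 30 h it was 3 higher and 4 lower, and without replicate 1 or replicate 3 of the high culture at 18 h it was 4 and 6, or 3 and 5. The second number that ends the titles, whose meaning the labels do not give, is 1 for all 18 h and 2 for all 30 h libraries. With it as a term, 0 members were higher and 5 lower, and Ndufc1 and Ndufs4 no longer passed (adjusted p = 0.574 and 0.187).

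Between 30 and 48 h, 5 of 70 were higher and 15 lower, where 26.7% of all genes passed (14.9% higher and 11.8% lower). Atp5g1 fell by 0.84 on the log2 scale (SE 0.12; adjusted p = 1.22e-07) and Cox7b by 0.59 (SE 0.18; adjusted p = 0.0142). This average hides a split for Atp5g1. Its raw counts went from 892, 1381 and 2095 at 30 h to 254, 379 and 497 at 48 h in high cultures. In low cultures they went from 750, 867 and 1215 to 1064, 698 and 996. The ATP synthase sum went from 12310 to 9787 CPM in high and from 11360 to 11530 CPM in low cultures. The step was not tested at each concentration apart. Ndufv3 rose by 0.90 ± 0.10 (adjusted p = 2.24e-10), and Cox6b2, the form of subunit 6b known best in testis, by 1.10 ± 0.40 (adjusted p = 0.0354) at no more than 9.72 CPM in these cultures. The total of 20 was 13 without replicate 3 of the low culture at 30 h, 11 without its replicate 2 and 12 without replicate 1 of the high culture at 30 h.

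Between 48 and 72 h, 5 of 70 were higher and 19 lower, where 31.9% of all genes passed (16.6% higher and 15.3% lower). The total of 24 is near that share. The complex I sum went from 10460 to 9068 CPM in high but from 10400 to 10780 CPM in low cultures. That of ATP synthase fell in both, from 9787 to 7608 and from 11530 to 10180 CPM. The second title number is 2 for all high libraries at 48 h and 1 for all at 72 h, and its part was not told apart. Ndufaf2, an assembly factor that holds the place Ndufa12 later takes in complex I, fell by 0.97 on the log2 scale (SE 0.18; adjusted p = 2.94e-05), and Ndufa5 by 0.83 (SE 0.15; adjusted p = 1.39e-05). Uqcrh, the hinge subunit of complex III, rose by 0.49 ± 0.14 (adjusted p = 0.00499), and Ndufa6 by 0.41 ± 0.11 (adjusted p = 0.00303).

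**Figure D3:**
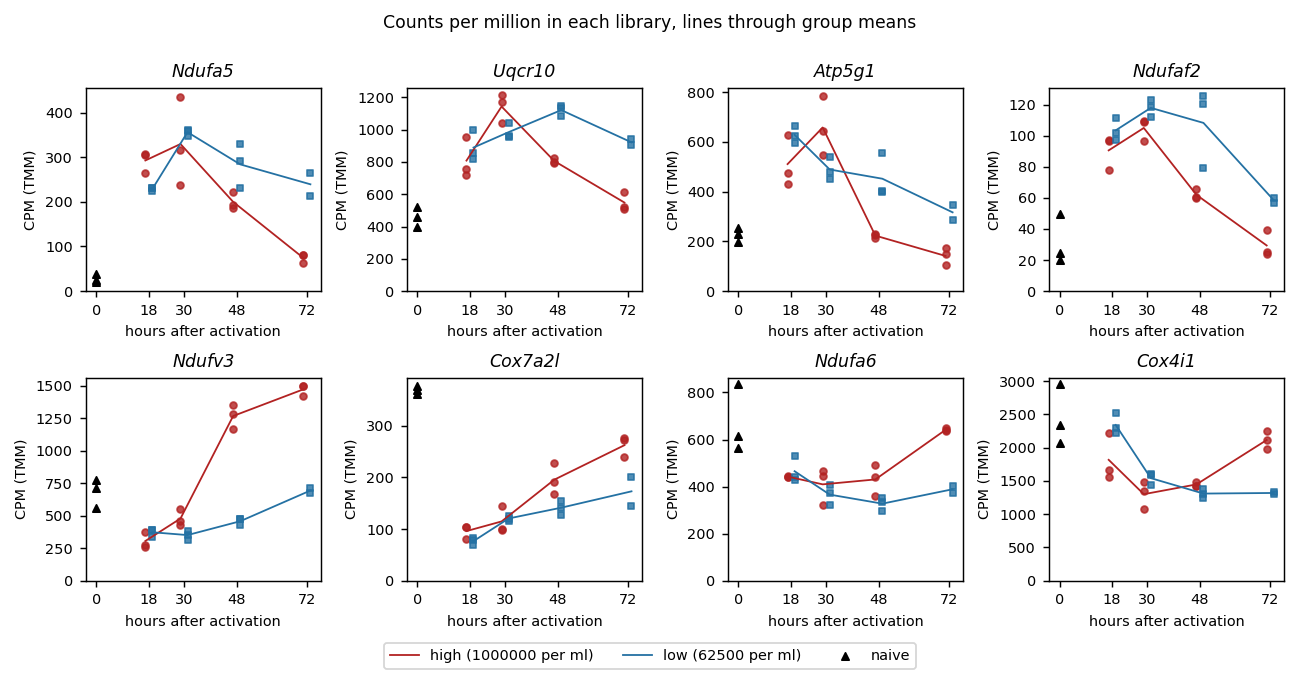
CPM of Ndufa5, Uqcr10, Atp5g1, Ndufaf2, Ndufv3, Cox7a2l, Ndufa6 and Cox4i1 in each unsorted library of experiment 2, against hours of activation, for high and low cultures, with naive cells at 0 h. At 72 h the first 4 are lower and the last 4 higher in high than in low cultures, with no overlap between libraries.

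The starting concentration separated the cultures late. At 18 h, 0 of 70 members differed between high and low cultures by edgeR's quasi-likelihood test or by DESeq2, where 1.87% of all genes passed (1.15% higher and 0.725% lower); 5 members had an unadjusted p under 0.05, and 3 passed when the 2 groups were fitted alone. At 30 h, 12 were higher and 1 lower in high cultures, where 8.56% of all genes passed (4.63% higher and 3.93% lower). For the 48 h cultures, 3 were higher and 10 lower, where 25.9% passed (13.9% higher and 12% lower), so the total of 13 of 70, or 18.6%, is below the background. Those 13 calls were 4 when only these groups were fitted, 7 with the second number of the titles as a term, and 6 with replicate 1 as the sole low library. At 72 h, 5 were higher and 32 lower, or 52.9% of the members, where 26.5% of all genes passed (13% higher and 13.5% lower). The median member was then lower by 0.39 in high cultures on the log2 scale. Over the mean of the 4 times, 3 members were higher and 16 lower, where 20.5% of all genes passed (10.5% higher and 9.97% lower).

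By complex, 72 h high cultures had 19 of 31 complex I subunits lower and 2 higher, 4 of 8 complex III subunits lower, 5 of 12 ATP synthase subunits lower and 2 of 4 tested assembly factors lower. Of complex IV, 1 of 12 subunits was lower (Cox6b1) and 2 higher, and Ndufa4, counted apart, was lower. The median member was lower by 0.48 in complex I, by 0.39 in complex III and in ATP synthase, and by 0.06 in complex IV, all on the log2 scale. The difference between complexes was not tested.

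The 72 h count leans on few libraries. Without replicate 2 of the low culture at 72 h, which leaves that group 1 library assumed to vary like the others, 4 members were higher and 19 lower. The second number of the titles at 72 h is 1 for all high and 2 for all low libraries, so within either number there is nothing to compare, and with that number as a term in the fit 3 members were higher and 19 lower. Markers of other cells moved too. Those of CD8 T and NK cells, 2 of 5 of which were read, summed to 31.8 to 37.9 CPM in high and 14.2 to 15.6 CPM in low cultures at 72 h, and Cd8b1 was higher in high cultures by 1.26 ± 0.29 (adjusted p = 0.000723). Myeloid markers summed to 1.72 to 11.1 CPM in high and 2.5 to 2.95 CPM in low cultures, and Csf1r had 10, 1 and 9 counts in high and 0 counts in both low libraries (adjusted p = 0.0356). Their part in the difference was not tested.

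Ndufa5 had 80.6, 62.0 and 80.5 CPM in high cultures at 72 h, against 213 and 265 CPM in low ones. At 48 h it had 222, 185 and 193 CPM in high and 330, 292 and 231 CPM in low ones, and at 30 h 434, 317 and 238 CPM in high and 359, 348 and 362 CPM in low ones. Its libraries overlapped at 30 h, did not at 48 h and were far apart at 72 h. The difference was -0.51 ± 0.19 at 48 h (adjusted p = 0.039) and at 72 h -1.69 ± 0.22 (adjusted p = 7.79e-08). Its transcript in the high culture at 72 h was still above the naive libraries.

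Atp5g1 also separated at 48 h. It then had 213, 230 and 226 CPM in high and 555, 402 and 400 CPM in low cultures, a difference of -1.02 ± 0.17 (adjusted p = 4.33e-06), and at 72 h 103, 173 and 148 CPM in high against 286 and 348 CPM in low ones, a difference of -1.17 ± 0.19 (adjusted p = 4.30e-06). In the high culture at 72 h all 3 libraries were below the naive libraries, at 196, 256 and 230 CPM. Of the other genes of the c subunit, Atp5g3 was also lower at 72 h, by 0.71 on the log2 scale (SE 0.17; adjusted p = 0.00116), and Atp5g2 differed by 0.71 ± 0.59 (adjusted p = 0.401).

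Atp5b had 1412, 1268 and 1431 CPM in high and 2191 and 2132 CPM in low cultures at 72 h, with a difference of -0.66 ± 0.13 (adjusted p = 9.88e-05). Uqcr10 had 612, 522 and 511 CPM in high and 903 and 940 CPM in low cultures at 72 h, with a difference of -0.75 ± 0.16 (adjusted p = 0.00044). For neither did the groups overlap. Ndufaf2 was lower in high cultures at 48 h, by 0.81 (SE 0.22; adjusted p = 0.00463), and at 72 h, by 0.98 (SE 0.28; adjusted p = 0.00731), on the log2 scale.

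The 5 members that were higher in high cultures at 72 h were Ndufv3, Atp5sl, Ndufa6, Cox4i1 and Cox7a2l. Ndufv3 had 1168, 1284 and 1352 CPM in high and 426, 472 and 476 CPM in low cultures at 48 h, and 1500, 1501 and 1419 CPM in high against 676 and 713 CPM in low ones at 72 h. The groups were far apart at both times, with differences of 1.47 ± 0.14 and 1.09 ± 0.16 (adjusted p = 3.64e-12 and 4.33e-07). All 3 libraries of the high culture at 72 h also lay above the naive libraries, unlike the activated libraries at 18 h.

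Cox4i1 had 2114, 2251 and 1976 CPM in high and 1304 and 1333 CPM in low cultures at 72 h, while at 18 h it had 1666, 2222 and 1561 CPM in high and 2289, 2514 and 2217 CPM in low ones. The libraries of the high culture were the lower ones early, overlapping with the low culture by 1 library, and the higher ones late. At 72 h the difference was 0.68 ± 0.15 (adjusted p = 0.000409). Its paralogue Cox4i2, a form best known in lung, was left out by the minimum, with 6 counts in all of experiment 2.

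Ndufa6 had 648, 641 and 635 CPM in high and 373 and 404 CPM in low cultures at 72 h, a difference of 0.72 ± 0.17 (adjusted p = 0.000945). Cox7a2l had 275, 240 and 272 CPM in high and 145 and 202 CPM in low cultures, a difference of 0.60 ± 0.20 (adjusted p = 0.0225). Atp5sl, an assembly factor of the distal membrane arm of complex I now named Dmac2, had 46.9, 43.0 and 52.7 CPM in high and 25.6 and 28.9 CPM in low cultures, a difference of 0.80 ± 0.27 (adjusted p = 0.0219). For all 3 the groups did not overlap at 72 h.

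At 30 h the direction was the opposite for complex I, with 9 of 31 subunits higher in high cultures and 0 lower. Ndufs4, an accessory subunit whose loss in mice causes a disease like Leigh syndrome, had 261, 144 and 165 CPM in high and 80.5, 97.2 and 97.9 CPM in low cultures, a difference of 1.03 ± 0.22 (adjusted p = 0.00141). Ndufa4 had 239, 126 and 241 CPM in high and 62.5, 56.9 and 72.2 CPM in low ones, a difference of 1.65 ± 0.33 (adjusted p = 0.00138). Uqcrb had 14.4, 76.8 and 21.3 CPM in high and 216, 212 and 162 CPM in low ones, a difference of -2.33 ± 0.57 (adjusted p = 0.0102). In none of these did the groups overlap, but replicates 1 and 3 of the high culture were mostly further from the low culture than replicate 2. The total of 13 calls was 8 without replicate 1 and 7 without replicate 3 of the high culture, 7 without replicate 1 of the low culture, and 1 with replicate 2 as the sole library of the high culture.

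**Figure D4:**
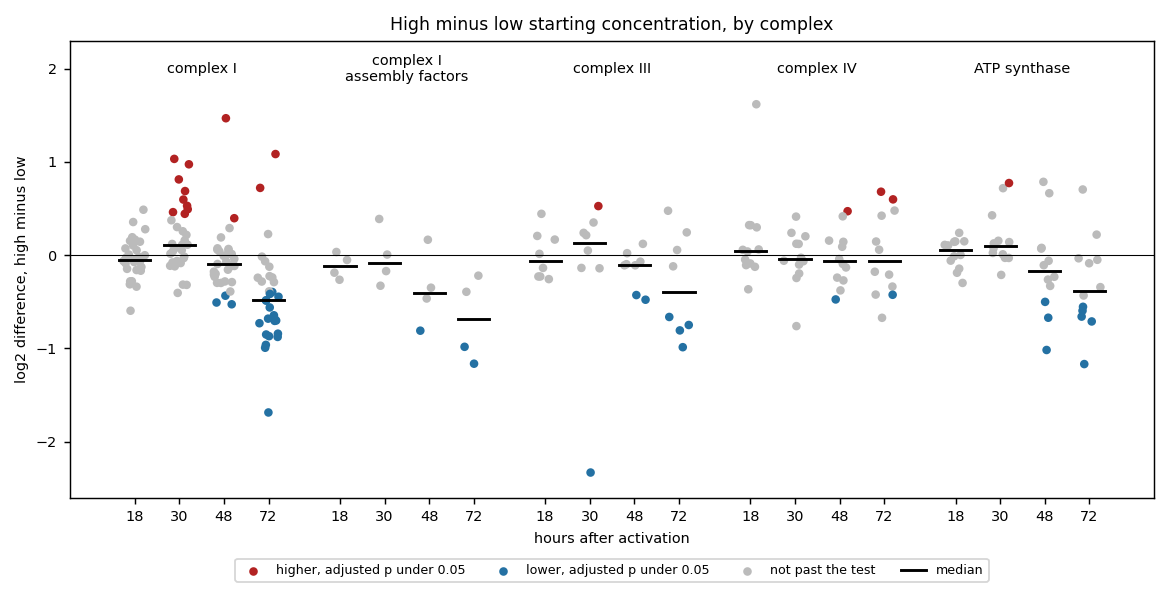
High minus low difference (log2) of each tested member at 18, 30, 48 and 72 h, by complex, with red points higher and blue points lower past the test, grey points not past it, and bars at the medians; Ndufa4, Atp5s and Atp5sl are not drawn. Complex I, complex III and ATP synthase lie mostly below 0 at 72 h, and complex IV lies near 0.

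The change of the high minus low difference between 18 and 72 h was tested as such. It was positive for 4 members and negative for 18 of 70, where 16.3% of all genes passed (7.1% positive and 9.22% negative). Ndufa4 changed by -2.23 ± 0.54 (adjusted p = 0.00405) and Ndufa5 by -2.04 ± 0.29 (adjusted p = 1e-06). Ndufv3 changed by 1.36 ± 0.21 (adjusted p = 3.35e-06), Atp5sl by 1.23 ± 0.38 (adjusted p = 0.0181) and Cox4i1 by 1.05 ± 0.20 (adjusted p = 8.8e-05). Of the 18 negative ones, 10 were complex I subunits, 5 ATP synthase subunits and 2 complex III subunits, and the others were Ndufa4 and no member counted as a complex IV subunit. The total was 12 without replicate 2 of the low culture at 72 h, 14 without replicate 2 of the high culture at 18 h, and 34 when only these groups were fitted.

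Ndufa4 at 72 h had 30.5, 45.6 and 38.8 CPM in high and 129 and 125 CPM in low cultures, with no overlap, and a difference of -1.73 ± 0.39 (adjusted p = 0.00137). With the second title number as a term the difference was -1.22 (adjusted p = 0.0592). Its paralogue Ndufa4l2, a gene induced by hypoxia in other cells, was left out by the minimum, with 3 counts in experiment 2.

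Cox6a2, the form of subunit 6a of heart and skeletal muscle, was too low to test but was read almost wholly in late dense cultures. Its counts were 4, 6 and 14 in high cultures at 48 h and 6, 4 and 2 at 72 h, together 36 counts or 4.21 CPM, against 0 counts in the 5 low libraries at these times. Set against a floor of 3 counts over these 5 libraries, 0.318 CPM, the level was at least 13.2-fold higher in high cultures. This covers counting error only. Without the 36 counts of the late high cultures, the gene would fall under the minimum of 10 counts in experiment 2. Its place among the members rests on the cultures where it is high, so the fold is a description and not a test. All 38 libraries held 44 counts of Cox6a2. The gene overlaps Itgad, which had 1 count in all 38 libraries. Its paralogue Cox6a1, the form of most tissues, was read at 928 to 1495 CPM in the unsorted and naive libraries.

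Members that differed between the CD62L gates were mostly lower in CD62L positive cells. Over 48 and 72 h in experiment 2, 1 of 70 was higher and 13 lower in CD62L positive cells, where 14.6% of all genes passed (7.23% higher and 7.33% lower). The 13 were 7 complex I subunits, 3 ATP synthase subunits, Uqcrq of complex III, the assembly factor Ndufaf7 and Ndufa4, and apart from Ndufa4 no complex IV subunit passed. CD62L chose the sort and each library is a sorted pool, so these are differences between gates. Cd8b1 was also higher in CD62L positive cells, by 0.59 ± 0.18 in experiment 2 (adjusted p = 0.0152) and by 1.01 ± 0.21 in experiment 1 (adjusted p = 0.000556), and its part was not tested.

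Ndufa12 had 149, 149 and 164 CPM in CD62L positive and 210, 301 and 196 CPM in CD62L negative cells at 48 h, and 83.4, 85.7 and 85.3 CPM in positive against 154, 231 and 97.3 CPM in negative cells at 72 h. At each time the gates did not overlap, and the mean difference was -0.77 ± 0.19 (adjusted p = 0.0054). Ndufv3 had 1179, 1184 and 1170 CPM in positive and 651, 649 and 609 CPM in negative cells at 48 h, and 1018, 895 and 894 CPM in positive against 776, 864 and 1047 CPM in negative cells at 72 h. The gates were apart at 48 h and overlapped at 72 h, with a mean difference of 0.48 ± 0.10 (adjusted p = 0.000332). Ndufa4 differed by -0.94 ± 0.24 (adjusted p = 0.00757), with overlap between the gates at 48 h. The second number of the titles at 48 h is 1 for all CD62L positive libraries and for replicate 1 of CD62L negative cells. It is 2 for negative replicates 2 and 3. Negative replicate 1 had 62.9 CPM of Ndufa4, within the 54.7 to 88.2 CPM of positive cells, and negative replicate 2 had 238 CPM. The part of that number was not told apart.

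In experiment 1 the same contrast gave 1 of 60 higher and 7 lower in CD62L positive cells, where 21.4% of all genes passed (11.3% higher and 10.1% lower); the 8 are 13.3% of the members. Uqcr10 had 613, 694 and 597 CPM in CD62L positive and 735, 832 and 830 CPM in CD62L negative cells at 48 h, and 307, 362 and 298 CPM in positive against 514, 505 and 512 CPM in negative cells at 72 h. The gates did not overlap at either time, and the difference was -0.49 ± 0.10 (adjusted p = 0.000188). Ndufaf4, an assembly factor of complex I, differed by -0.71 ± 0.17 (adjusted p = 0.00183) and Atp5sl by 0.38 ± 0.12 (adjusted p = 0.0233). Cox5a of complex IV also passed, at -0.44 ± 0.11 (adjusted p = 0.00304). In experiment 2 Cox5a differed by -0.32 ± 0.12 and did not pass (adjusted p = 0.0731). The total of 8 was 13 without replicate 2 of CD62L positive cells at 72 h. Atp5g3 and Ndufb6 were lower in CD62L positive cells in both experiments, 28.6% of the 7 members past the test in either direction in experiment 1 and 15.4% of the 13 in experiment 2, among 59 tested in both. Lists of 7 and 13 among 59 can share this few by chance alone. The overlap over all genes is not given here.

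In sorted cells, more members were lower than higher at 72 h in both experiments. In experiment 2, 5 of 70 were higher and 34 lower at 72 h than at 48 h, where 37.8% of all genes passed (19.1% higher and 18.6% lower). In experiment 1, 3 of 60 were higher and 32 lower, where 52.5% passed (27.2% higher and 25.3% lower). Complex I had 16 of 31 subunits lower and 2 higher in experiment 2 and 16 of 26 lower in experiment 1, and ATP synthase had 9 of 12 and 5 of 9 lower. Complex IV had 4 of 12 lower and 2 higher in experiment 2 and 3 of 11 lower and 2 higher in experiment 1.

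Ndufaf2 in experiment 2 had 30.8, 36.7 and 37.4 CPM in CD62L positive and 38.0, 29.5 and 61.6 CPM in CD62L negative cells at 72 h. At 48 h it had 106, 97.4 and 93.3 CPM in positive and 149, 83.1 and 91.3 CPM in negative cells. Every 72 h library was below every 48 h library, and the difference was -1.40 ± 0.17 (adjusted p = 2.04e-09). Ndufaf4 in experiment 1 had 12.7, 18.0 and 23.6 CPM in CD62L positive and 35.4, 44.5 and 32.7 CPM in CD62L negative cells at 72 h. At 48 h it had 113, 67.7 and 80.2 CPM in positive and 110, 103 and 114 CPM in negative cells. These libraries too were apart, with a difference of -1.92 ± 0.16 (adjusted p = 2.49e-12).

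Atp5g1 fell in both experiments, by 1.04 on the log2 scale in experiment 2 (SE 0.12; adjusted p = 7.61e-10) and by 1.30 in experiment 1 (SE 0.29; adjusted p = 0.00161). Ndufa12 fell by 0.71 in experiment 2 (SE 0.19; adjusted p = 0.00378) and by 1.57 in experiment 1 (SE 0.20; adjusted p = 2.85e-08). Ndufa1, a small membrane subunit of complex I that overlaps Rnf113a1 on the genome, rose in experiment 2 by 0.46 ± 0.11 (adjusted p = 0.000557).

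Cox7a2l rose in both. In experiment 1 it had 390, 471 and 468 CPM in CD62L positive and 334, 296 and 306 CPM in CD62L negative cells at 72 h, against 201, 163 and 177 CPM in positive and 188, 179 and 233 CPM in negative cells at 48 h. No 72 h library overlapped a 48 h library, and the difference was 0.97 ± 0.10 (adjusted p = 6.24e-10). In experiment 2 the difference was 0.73 ± 0.13 (adjusted p = 4.83e-06). Atp5sl rose by 0.65 ± 0.12 in experiment 1 (adjusted p = 3.14e-05) and by 0.46 ± 0.17 in experiment 2 (adjusted p = 0.0241).

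Of 59 members tested in both experiments, 34 passed in each, and 23 of them passed in the same direction, 67.6% of either list: 21 lower and 2 higher at 72 h, the 2 being Cox7a2l and Atp5sl. Ndufa6 passed in opposite directions, lower by 0.48 in experiment 1 and higher by 0.38 in experiment 2. Lists of 34 among 59 share many members by chance alone, and the overlap over all genes is not given here. The sign was shared by 52 of the 59, and across these genes, which are not independent replicates, the differences correlated with r = 0.68. For CD62L the sign was shared by 42 of 59, with r = 0.48. For activation, at 48 h in experiment 1 and 18 h in experiment 2, it was shared by 44 of 59, with r = 0.31.

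**Figure D5:**
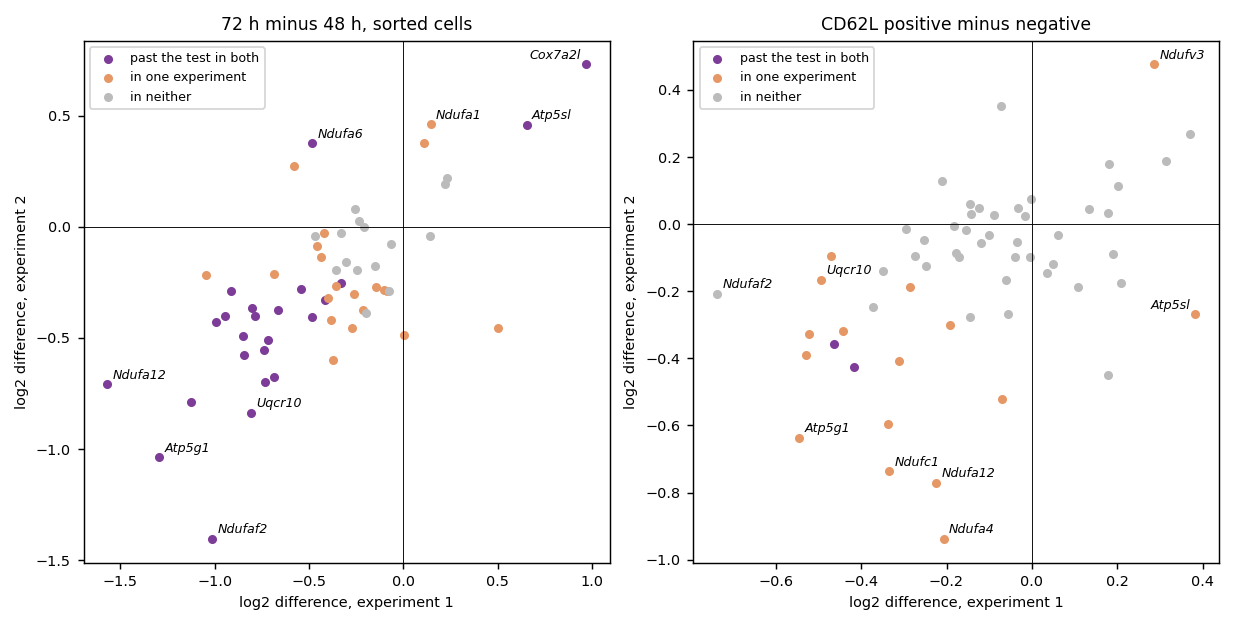
Log2 difference of each member tested in both experiments, experiment 2 against experiment 1, for 72 h minus 48 h in sorted cells and for CD62L positive minus negative cells. Most points lie below 0 on both axes for time, with Cox7a2l and Atp5sl above 0 on both, and the points lie nearer 0 for CD62L.

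Activated sorted cells could be set against naive cells in experiment 1 also. At 48 h, 37 of 60 members were higher and 3 lower than in naive cells, where 62.1% of all genes passed (30.3% higher and 31.8% lower). Atp5b had 1245, 1080 and 1033 CPM in CD62L positive and 903, 969 and 1043 CPM in CD62L negative cells, against 217, 255 and 196 CPM in naive libraries, a difference of 2.23 ± 0.16 (adjusted p = 2.83e-14). Cox7a2l had 201, 163 and 177 CPM in CD62L positive and 188, 179 and 233 CPM in CD62L negative cells, against 326, 526 and 494 CPM in naive cells, and fell by 1.32 on the log2 scale (SE 0.14; adjusted p = 8.27e-10). Both genes separated the groups without overlap. The third gene lower beside Cox7a2l and Atp5sl was Cox8a, by 0.71 (SE 0.16; adjusted p = 0.000215).

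Ndufb7, a complex I subunit, had 104 counts in the 6 activated and 0 counts in the 3 naive libraries, so its level was at least 3.37-fold higher over a floor of 3 counts in the naive group. Ndufv1, the core subunit that binds NADH, had 130 counts in activated libraries and 1 in naive ones, 12.6 times the naive level (95% interval on the counts 2.23 to 503). Ndufv3 had 170 and 2 counts, 8.26 times the naive level (interval 2.25 to 68.7), and so was higher in activated cells here and lower at 18 h in experiment 2. The tables read Ndufv3 at different levels and the times differ. Ndufb7, Ndufv1 and Ndufv3 passed the low-count filter only through activated libraries, where they are high. They are among the members counted above as higher in activated cells of experiment 1. Their ratios and calls here are descriptions of counts and not a test of activation.

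Markers of other cells differed between these libraries. Activated libraries at 48 h had 5.33 to 15 CPM of B cell, 14.6 to 20.1 CPM of myeloid, 7.48 to 51 CPM of red cell and platelet and 12.3 to 38 CPM of CD8 T and NK cell markers. Naive libraries had 714 to 1250 CPM of B cell, 435 to 917 CPM of myeloid, 160 to 429 CPM of red cell and platelet and 93.1 to 310 CPM of CD8 T and NK cell markers. A globin listed under a pair of symbols with identical counts is counted once in these sums. Of the B cell list, Pax5 was at 0 in every library. Their part in these differences was not tested. In experiment 2, where the B cell list summed to at most 14.9 CPM in any library, activation was tested at 18 h. Among the members tested in both, 31 passed as higher in both experiments, while Cox7a2l and Atp5sl fell in both. The 31 include Ndufb7, Ndufv1 and Ndufb8, the last with 164 counts in activated and 2 in naive libraries of experiment 1. Ndufv3 passed in opposite directions. For Ndufb7, Ndufv1 and Ndufv3 the call in experiment 1 is not a test of activation, as said above. The overlap over all genes is not given here.

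Mature cells differed from naive ones in 2 of 60 members, both higher, where 16.4% of all genes passed (7.82% higher and 8.59% lower). Atp5f1, the b subunit of the stator of ATP synthase, had 281, 326 and 356 CPM in mature and 233, 157 and 193 CPM in naive cells, a difference of 0.80 ± 0.19 (adjusted p = 0.0033). Atp5c1, the gamma subunit of its central stalk, had 123, 143 and 150 CPM in mature and 46.6, 67.9 and 93.3 CPM in naive cells, a difference of 0.84 ± 0.28 (adjusted p = 0.0381). In neither did the groups overlap. The B cell markers, at 448 to 487 CPM in mature libraries, and myeloid markers, at 94.7 to 139 CPM, also differed from naive libraries, and their part was not tested. The total was 0 without replicate 2 and 1 without replicate 3 of the naive cells, 1 without replicate 2 or 3 of the mature cells, and 4 when only these 2 groups were fitted.

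Genes that work with the members were counted in lists. The first list held 8 tested genes outside the symbol rule: those of succinate dehydrogenase, cytochrome c1, small proteins of ATP synthase and its inhibitor Atpif1. All 8 rose at 18 h in experiment 2, where 65.9% of all genes passed. In high cultures at 72 h 3 were lower, where 26.5% passed. Among them were Sdhb of complex II, by 1.09, and Cyc1, cytochrome c1, by 0.61 on the log2 scale. In experiment 1 the 8 tested held Cycs in place of 2010107E04Rik. At 72 h against 48 h in its sorted cells all 8 were lower, where 52.5% of all genes passed. The same contrast in experiment 2 was mixed: Cyc1, Sdha, Sdhb and Sdhc were lower and Atpif1 was higher, by 0.47 on the log2 scale. There Sdhd, Usmg5 and 2010107E04Rik did not pass. Of 35 other assembly factors 14 rose and 9 fell at 18 h, and 1 was higher and 6 lower in high cultures at 72 h; both totals are near or below the shares of all genes just given. Of 16 regulators of mitochondrial genes and of substrate use, 5 rose and 6 fell at 18 h, and at 72 h 4 were higher and 2 lower in high cultures, against the same shares of all genes. The higher ones included Pdk1, which slows the entry of pyruvate into mitochondria, by 2.39, and Myc by 1.20. Of 10 tested glycolysis genes, 6 were higher in high cultures at 30 h, 10 at 48 h and 9 at 72 h, and 0 were lower at these times, where 8.56%, 25.9% and 26.5% of all genes passed.

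Over the 13 groups of experiment 2, the genes whose mean log2 CPM ran most like the mean of the members were Mrpl39 (r = 0.98), Eif1ax (r = 0.98), Psma2 (r = 0.97), Chchd1 (r = 0.97) and Copb2 (r = 0.97). Among the members themselves, Ndufb2 (r = 0.99), Atp5a1 (r = 0.98), Cox6b1 (r = 0.97) and Ndufa5 (r = 0.96) ran closest to that mean, and Ndufa6 (r = -0.86), Cox7a2l (r = -0.79), Atp5sl (r = -0.76), Atp5g2 (r = -0.69) and Cox4i1 (r = -0.67) ran against it. Each value is over 13 group means that share the scaling of their libraries.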

How the data were processed

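The deposited tables hold counts of unique molecular identifiers per gene symbol, which the authors made from 3′-end libraries of polyadenylated RNA. Per the submitters' processing notes, the build was mm9 and the tools, listed with no role, included STAR 2.5.2b with HTSeq 0.9.1, HISAT 0.1.5, and FastQC 0.11.7 beside bcl2fastq 2.17.1.14. No source used here states whether counting used strand, and 11 members overlap another protein-coding gene, so their counts are uncertain; among them are Atp5a1, Cox6a2, Cox7a2, Ndufa1, Ndufa2 and Uqcrq.

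Each table was fitted on its own over all its groups with edgeR 4.0.16 in R 4.3.3: TMM scaling, filterByExpr with a minimum count of 10, and robust quasi-likelihood tests with 12 and 25 residual degrees of freedom. Adjusted p-values are Benjamini-Hochberg values over all 8961 or 9239 genes tested in that table, and 0.05 was the threshold. The script was tested on simulated data. Alternatives used relative log expression scaling, DESeq2 1.42.0, no filter, the compared groups alone, a replicate block, a second number in the titles, ribosomal protein genes left out, and each library left out in turn. Intervals on counts cover counting error only. Replicate libraries differed by more than sampling noise, with a chi-square per degree of freedom of 1.32 to 4.36 in experiment 1 and 1.62 to 16.5 in experiment 2.

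The members and lists were chosen with earlier results of these data known. Members named were the 2 largest rises and falls among those past each test, the paralogues of subunits 4, 6a, 6b, 7a, 8, c and Ndufa4, the most abundant member per complex, those varying over 4-fold within a group, and the 5 genes most like the members' mean. Others were chosen after their values were seen. Genes of mitochondrial DNA and protein sequences were not analysed here, and 1 member is counted but not reported by name.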

Additional observations from a re-analysis of the deposited data

Results flagged for a closer look

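The difference between high and low starting concentration itself changed between 18 and 72 h for 22 of 70 members by edgeR's quasi-likelihood test of that change, where 16.3% of all genes passed. The change, on the log2 scale, was 1.36 for Ndufv3 and 1.23 for Atp5sl, for which the high culture moved upward relative to the low one. It was -2.23 for Ndufa4 and -2.04 for Ndufa5, for which the high culture moved downward. The libraries of the low culture at 72 h number 2, and at that time the second number in the titles is the same for all libraries of a concentration and differs between concentrations, so that number and the concentration cannot be told apart there.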

How the results depend on the processing

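Leaving out each library in turn gave 53 to 55 calls among members for activation at 18 h (55 with all libraries), 7 to 14 for the step to 30 h (11), 11 to 23 for the step to 48 h (20), 18 to 27 for the step to 72 h (24), 0 to 1 for concentration at 18 h (0), 7 to 15 at 30 h (13), 9 to 13 at 48 h (13), 23 to 34 at 72 h (37), 15 to 23 over all times (19) and 12 to 23 for its change (22). For CD62L the range was 11 to 16 (14) in experiment 2 and 6 to 13 (8) in experiment 1. For 72 h against 48 h in sorted cells it was 34 to 42 (39) and 34 to 38 (35), for activation in experiment 1 32 to 43 (40), and for mature cells 0 to 3 (2). The balance between higher and lower turned for the step to 30 h without replicate 1 of the high culture at 30 h (7 calls), or without replicate 1 (10) or 3 (8) of the high culture at 18 h. With the second title number as a term, the step to 30 h had 5 calls, all lower, concentration at 48 h had 7 and at 72 h 22. Fitting only the compared groups gave 3 calls for concentration at 18 h, 4 at 48 h, 34 for its change, and 4 for mature cells. Alternatives chosen after seeing the data kept only replicate 2 of the high culture at 30 h, which left 1 call, or only replicate 1 of the low culture at 48 h, which left 6. The cause was not tested.

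Over all pairs of groups together, the replicate numbers showed no common pairing. Same-numbered libraries of different groups had a median correlation of deviations of -0.012 in experiment 1 (range -0.29 to 0.4) and 0.0019 in experiment 2 (range -0.45 to 0.49). A pooled median cannot show whether single groups are paired, such as gates sorted at the same time. With the replicate block, 37 members passed for concentration at 72 h, 55 for activation at 18 h and 40 for 72 h against 48 h in experiment 2. Of the alternatives for members named by rule, 914 kept their side of the threshold, 55 lost it and 0 reversed. Leaving out 1 library in turn made up 553 of those kept and 37 of those lost. With the second title number as a term, 35 kept it and 7 lost it. Members named as the largest changes past a test were picked from these same data, so the totals favour stability. For activated 48 h minus naive, experiment 1, the median of all genes was -0.28 on the log2 scale under DESeq2 and 0.02 under edgeR. Depth limits naive cells of experiment 1 most, where 1 library holds 58750 counts.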
